A study of Mus musculus with 6 samples.

Results

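The 10 genes described here are core parts of the mouse Hippo pathway and its TEAD transcription factors: Yap1, Wwtr1, Tead1, Tead3, Lats1, Lats2, Stk3, Sav1, Nf2 and Amotl2. They were taken by name, and all 10 were found among the 31319 genes of the count tables. Their levels came from single-nucleus RNA-seq of mouse small intestinal organoids, which are epithelial buds grown in culture from crypts of the jejunum, here from C57BL/6 mice aged 8 to 12 weeks. Organoids were kept in medium conditioned by quiescent fibroblasts (QCM, 3 samples) or by senescent fibroblasts (SCM, 3 samples). The fibroblasts were mouse embryonic fibroblasts, growth arrested by low serum for QCM and made senescent by X-rays or doxorubicin for SCM, and the sources used here do not say which of these agents served for the sequenced samples. The comparison asks whether secretions of senescent cells go with other levels of these genes in the epithelium. The labels do not say whether replicates came from separate mice, so p-values measure only the spread between these samples.

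In the Hippo pathway, a kinase cascade holds back 2 transcriptional co-activators, Yap1 and its relative Wwtr1 (also called TAZ). Stk3 (MST2) with its scaffold Sav1 activates the kinases Lats1 and Lats2, which phosphorylate Yap1 and Wwtr1 and keep them out of the nucleus, while Nf2 (merlin) and Amotl2 (an angiomotin) act upstream and at cell junctions. When the cascade is off, the co-activators enter the nucleus and bind TEAD factors on DNA. In the gut epithelium this pathway is known for its part in regeneration after injury. Much of this control acts on proteins, which transcript counts do not measure.

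The 6 samples held between 430 and 10833 nuclei and between 4071926 and 41035733 unique molecular identifier counts (UMIs, counts of single captured transcripts). The replicate 1 libraries stood apart: QCM 1 and SCM 1 shared 175 nucleus barcodes, 40.7% of the nuclei of SCM 1, and only 40 of these barcodes were in the same cluster in both. Of 14 other library pairs none shared more than 36. Their barcodes also began with only 192 (QCM 1) and 168 (SCM 1) different runs of 8 bases, against 2814 to 3619 in the other libraries. Results are therefore also given for replicates 2 and 3 alone. Ribosomal protein genes took 14.1%, 4.93% and 10.3% of UMIs in QCM 1, 2 and 3, and 4.16%, 2.62% and 7.25% in SCM. As a check of the tissue, all 6 epithelial markers were detected and summed to between 2716 and 4111 counts per 1000000 UMIs (CPM) per sample, while the fibroblast, immune and endothelial lists summed to at most 5.62, 5.62 and 9.08 CPM in any sample.

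On the mm10 (GRCm38) genome, Yap1 lies on chromosome 9 from 7931999 to 8004596 and Wwtr1 on chromosome 3 from 57455649 to 57575910, both on the minus strand. Lats2 lies on chromosome 14 from 57689662 to 57758388 (minus strand) and Amotl2 on chromosome 9 from 102716672 to 102733418 (plus strand). In the GENCODE annotation, Lats2 and Tead1 each overlap 1 other gene model on the same strand, Gm49361 and Gm44462, so that reads in the overlap may have been assigned to neither. Sav1 overlaps 4 gene models on the opposite strand, among them Atl1.

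The region around the start of 3 of these genes, Wwtr1, Lats2 and Amotl2, is shown because these scarce members had the 3 largest ratios of the mean in a small cluster of nuclei, cluster 7, to the mean in the other nuclei (12.2, 3.85 and 3.51, against 0.77 to 1.19 for the other 7 members). Without the 6% of nuclei with the most UMIs the ratio of cluster 7 to the other nuclei, with counts of all samples summed, was 1.39 for Lats2 and 0.78 for Amotl2, so for these a difference was then not detectable. Yap1 is shown beside them as a member found at similar levels in every cluster. Each window, from RefSeq on GRCm38.p6, runs from 250 bases before to 50 bases after a transcription start, 5′ to 3′ on the strand of the gene. The capitals mark the letters GGAATG or, on the other strand, CATTCC, the core of the sequence that TEAD factors are known to bind. The windows are chr3:57575861-57576160 (minus strand) for Wwtr1, chr14:57746074-57746373 (minus) for Lats2, chr9:102717554-102717853 (plus) for Amotl2 and chr9:8004547-8004846 (minus) for Yap1.
Wwtr1: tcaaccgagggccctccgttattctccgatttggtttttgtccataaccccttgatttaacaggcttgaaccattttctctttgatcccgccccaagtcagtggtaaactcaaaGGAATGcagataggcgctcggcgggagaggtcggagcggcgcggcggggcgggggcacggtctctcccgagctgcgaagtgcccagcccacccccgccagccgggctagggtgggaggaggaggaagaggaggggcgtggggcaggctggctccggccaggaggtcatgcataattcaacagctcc
Lats2: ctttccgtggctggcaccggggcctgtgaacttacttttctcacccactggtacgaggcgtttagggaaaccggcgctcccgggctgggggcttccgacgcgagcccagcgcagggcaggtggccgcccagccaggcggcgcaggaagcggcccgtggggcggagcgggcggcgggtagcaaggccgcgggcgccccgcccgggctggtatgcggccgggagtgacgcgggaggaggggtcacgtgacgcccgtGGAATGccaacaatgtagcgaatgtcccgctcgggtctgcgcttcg
Amotl2: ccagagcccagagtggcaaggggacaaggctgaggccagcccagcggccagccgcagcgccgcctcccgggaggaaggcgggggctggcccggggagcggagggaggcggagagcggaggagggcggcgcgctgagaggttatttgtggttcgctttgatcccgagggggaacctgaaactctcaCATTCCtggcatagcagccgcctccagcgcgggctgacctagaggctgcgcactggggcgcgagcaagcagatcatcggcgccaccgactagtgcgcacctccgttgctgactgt
Yap1: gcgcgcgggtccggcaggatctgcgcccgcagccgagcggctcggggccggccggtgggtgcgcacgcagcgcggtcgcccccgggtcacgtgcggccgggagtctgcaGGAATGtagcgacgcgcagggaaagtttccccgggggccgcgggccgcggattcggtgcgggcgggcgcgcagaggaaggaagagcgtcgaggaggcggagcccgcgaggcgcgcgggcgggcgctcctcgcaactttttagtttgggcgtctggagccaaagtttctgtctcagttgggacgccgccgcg

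The letters began 136 bases before the start in Wwtr1, 65 before it in Amotl2 and 141 before it in Yap1, and lay just after it in Lats2. For Lats2 and Amotl2 the start used lies inside the gene span given above, not at its outer end. Among the RefSeq windows used here 8 of the 10 members had a window, some of them several, and 8 of these 13 windows held the letters on either strand (none of those of Lats1 or Nf2). The windows of a gene can overlap. Over all 32851 windows of the same length the share was 14.7%. These matches describe the letters alone. Tead1 and Stk3 had no entry among the windows used here, which does not mean that RefSeq lacks these genes. The Lats2 window shown was the farther upstream of 2, and the other, chr14:57734369-57734668, had no match.

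Across the deposited clusters, numbered 0 to 14, the members fell into broadly even and sharply uneven genes. The levels below are means over samples with at least 10 nuclei in a cluster, for 14 clusters with at least 4 such samples. They are descriptions without a test, since the clusters were made from the same counts. Yap1 ranged from 99.7 ± 22.8 CPM (SD, n = 5) in cluster 9 to 142 ± 20.1 (n = 6) in cluster 2, a ratio of 1.42. No 2 neighbours in the order of its clusters differed by more than the larger of their SDs. This rule compares adjacent clusters only and can miss a gradual slope. Amotl2, among the uneven genes, also had no such neighbours, at a highest to lowest ratio of 9.50.

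The other 6 broad members had highest to lowest ratios between 1.62 (Sav1) and 2.22 (Lats1) and no neighbours apart by more than their SD. The extremes of a member could still be farther apart than that, as in Tead1. Tead1, a main partner of Yap1 on DNA, was highest in cluster 9 (290 ± 61.2 CPM, n = 5) and cluster 7 (252 ± 68.1, n = 6) and lowest in cluster 8 (146 ± 17.8, n = 6). It was higher in cluster 7 than in the other nuclei in 6 of 6 samples. The same held without the 6% of nuclei with the most UMIs and with nuclei thinned to 1000 UMIs. Ratios of the summed CPM were 1.38, 1.23 and 1.18 in that order. Summed CPM weigh samples with many cluster 7 UMIs most, and the ratio of the means over samples, all nuclei, was 1.16. Cluster 9 was enteroendocrine-like, with 8 of 8 markers raised, and cluster 8 enterocyte-like, with 5 of 7. In Tead3, the other TEAD factor listed, the order ran from 36.3 ± 28.6 CPM (n = 4) in cluster 13 to 17.9 ± 10.9 (n = 6) in cluster 1. Its SDs were large beside that difference, and the value in cluster 13 rests on 13 UMIs.

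Among the kinase genes, Stk3 was highest in cluster 2 (249 ± 56.0 CPM, n = 6) and lowest in cluster 13 (130 ± 57.1, n = 4), followed upward by cluster 1 (155 ± 65.5, n = 6). Lats1 was highest in cluster 5 (121 ± 36.4, n = 6) and lowest in cluster 13 (54.7 ± 10.9, n = 4). For the scaffold Sav1, cluster 7 had the top mean, 35.3 ± 11 CPM, next to 34.6 ± 9.96 in cluster 0 (n = 6 each), which is well within their spread. Nf2, an upstream regulator, was at 104 ± 16.7 CPM in cluster 2 and at 71.3 ± 17.0 in cluster 7 (n = 6 each). It was lower in cluster 7 than in the other nuclei in 6 of 6 samples, but in 4 of 6 without the 6% of nuclei with the most UMIs and in 4 of 6 after thinning (ratios of the summed CPM 0.87, 0.88 and 0.90). The ratio of the means over samples, all nuclei, was 0.77.

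**Figure D1:**
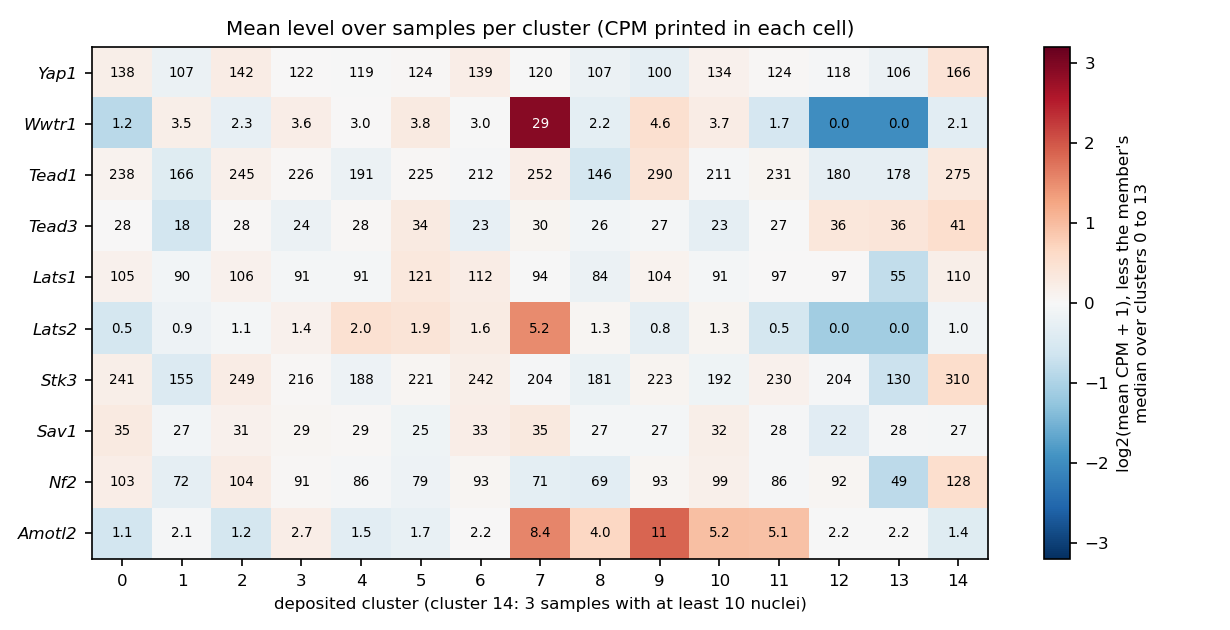
Mean CPM of each member (rows) in each deposited cluster (columns), printed in the cells. Colour gives log2(mean CPM + 1) less the member's own median over clusters 0 to 13, so red is above and blue below it. Wwtr1 at 29.0 CPM and Lats2 at 5.20 CPM in cluster 7 stand out, as does Amotl2 in clusters 7 and 9, while the rows of the other members are pale.

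Wwtr1, Lats2 and Amotl2 were scarce, with 551, 201 and 378 UMIs in all 38154 nuclei against 16484 for Yap1. Of the Wwtr1 UMIs, 263 (47.7%) came from cluster 7, which held 3.78% of the nuclei and 6.26% of the UMIs. Lats2 had 54 (26.9%) and Amotl2 91 (24.1%) of its UMIs there, while Yap1 had 7.01%. Cluster 7 was fetal-like, with 4 of 8 markers of fetal or regenerating epithelium raised at least 2-fold over the other nuclei (Clu, Ly6a, Anxa1 and Anxa3).

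In cluster 7 Wwtr1 was at 16.6, 24.6 and 26.3 CPM in QCM 1, 2 and 3 and at 39.0, 41.7 and 25.4 CPM in SCM 1, 2 and 3. The counts behind these values were 24, 17 and 20 UMIs in QCM and 6, 142 and 54 in SCM. In the other nuclei of the same samples Wwtr1 was at 0.960, 1.74 and 3.65 CPM in QCM and at 1.53, 3.22 and 3.12 CPM in SCM. The lowest sample in cluster 7 was thus above the highest sample outside it, and the ratio of the means was 12.2. The next cluster, 9, had 4.64 ± 1.44 CPM (n = 5), and from there down to cluster 0 (1.17 ± 0.839, n = 6) no neighbours differed beyond their SD. In clusters 12 and 13 no Wwtr1 UMI was counted, which allows levels of up to 3.57 and 6.70 CPM there (3 counts over the summed UMIs).

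Lats2 in cluster 7 was at 4.16, 4.35 and 2.63 CPM in QCM 1, 2 and 3 and at 6.51, 10.3 and 3.30 CPM in SCM. Outside it the values were 1.01, 0.848 and 1.15 CPM in QCM and 2.55, 1.09 and 1.46 CPM in SCM, so that every sample was higher in cluster 7. The counts behind the cluster 7 values were small, 6, 3 and 2 UMIs in QCM and 1, 35 and 7 in SCM. Lats2 is itself a known target gene of Yap1, as is Amotl2, so that both also appear on the list of target genes described further on.

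Amotl2 in cluster 7 was at 1.39, 11.6 and 5.26 CPM in QCM and at 6.51, 16.5 and 9.41 CPM in SCM, and outside it between 1.89 and 3.28 CPM. It was higher in cluster 7 in 5 of 6 samples, the exception being QCM 1. Its highest mean was in the enteroendocrine-like cluster 9, at 10.5 ± 2.50 CPM (n = 5) from 37 UMIs, which did not differ from cluster 7 (8.44 ± 5.27, n = 6) beyond the SD. The enteroendocrine-like cluster 10 (5.19 ± 4.0, n = 5) and the tuft-like cluster 11 (5.06 ± 1.89, n = 5) came next. Tuft cells are rare chemosensory cells of the gut lining.

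The depth of nuclei bears on these levels. In SCM 2 the nuclei of cluster 7 held 16681 UMIs each on average against 3606 in its other nuclei, and this 1 sample gave 142 of the 263 Wwtr1, 35 of the 54 Lats2 and 56 of the 91 Amotl2 UMIs of the cluster. Leaving out the 6% of nuclei with the most UMIs in each sample took cluster 7 from 8574406 to 3485781 UMIs. Wwtr1 in cluster 7 was then at 7.73, 9.83 and 22.3 CPM in QCM and 33.8, 21.8 and 20.1 CPM in SCM. These values rest on 8, 5 and 11 UMIs in QCM and on 3, 8 and 20 in SCM. Wwtr1 was still above the other nuclei in 6 of 6 samples, and the ratio of the summed CPM was 7.35. An excess of Lats2 or Amotl2 was not detectable without those deep nuclei. Lats2 had 5 UMIs left in cluster 7, 1.43 CPM (95% exact Poisson interval 0.466 to 3.35) against 1.03 (0.839 to 1.25) elsewhere, and Amotl2 had 6, 1.72 CPM (0.632 to 3.75) against 2.20 (1.92 to 2.51).

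With nuclei thinned to 1000 UMIs, Wwtr1 had 17 UMIs in cluster 7, 12.7 CPM (7.37 to 20.3), against 2.50 (1.99 to 3.09) elsewhere, but 3 of the 6 samples had none. Nuclei with fewer than 1000 UMIs were left out of this setting, 0, 490 and 1876 in QCM 1, 2 and 3 and 106, 228 and 479 in SCM. Lats2 and Amotl2 had 4 and 3 UMIs, too few to read a difference. These intervals cover counting error only. For replicates 2 and 3 alone the mean in cluster 7 was 29.5 CPM for Wwtr1, 5.14 for Lats2 and 10.7 for Amotl2. Leaving out the nuclei of the shared barcodes moved the summed CPM of Wwtr1 in cluster 7 from 30.7 to 30.8. This sum could hardly move, since SCM 1 gave few of its UMIs. The Wwtr1 UMIs of SCM 1 in cluster 7 fell from 6 to 2, while QCM 1 kept 24. Without the nuclei of the shared barcodes SCM 1 had no Lats2 or Amotl2 UMI in cluster 7. Lats2 was then higher there in 5 and Amotl2 in 4 of 6 samples.

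**Figure D2:**
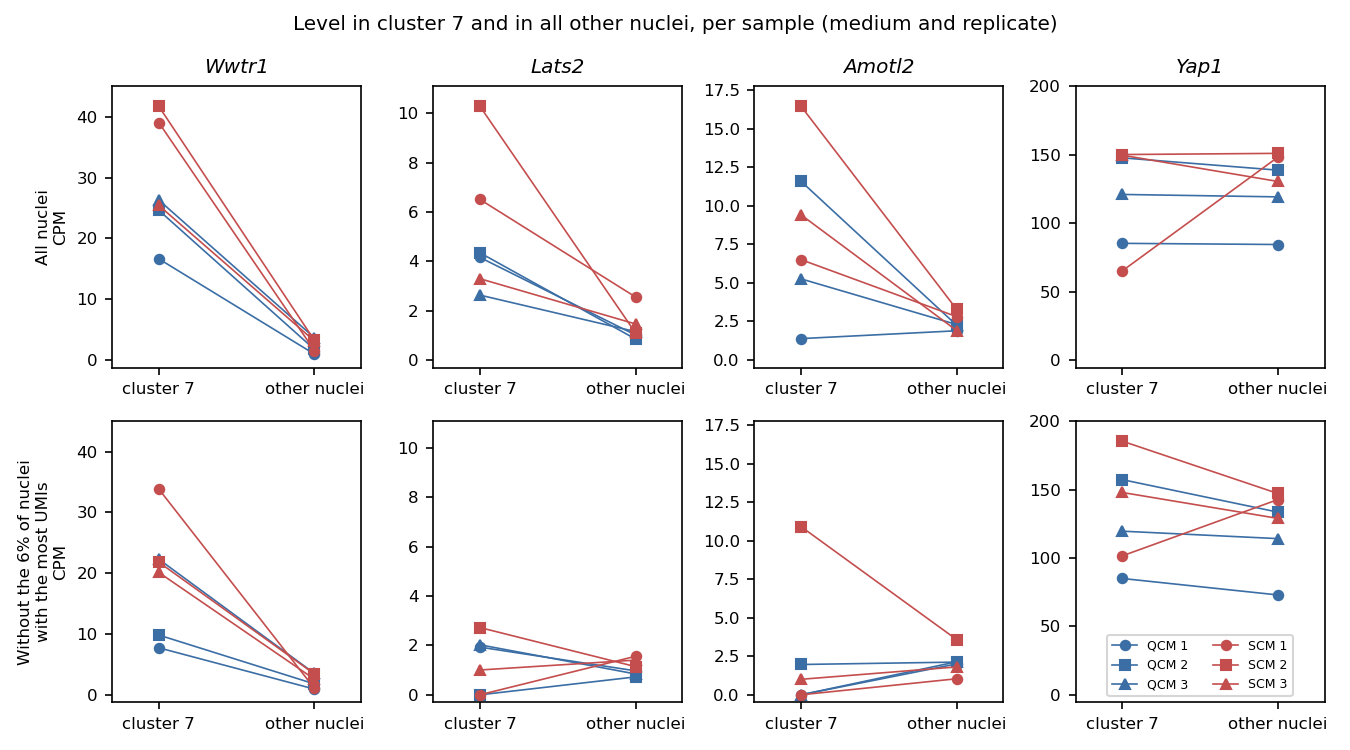
CPM of Wwtr1, Lats2, Amotl2 and Yap1 in cluster 7 and in all other nuclei, with 1 line per sample (blue QCM, red SCM, symbols the replicate). The upper row uses all nuclei and the lower row leaves out the 6% of nuclei with the most UMIs per sample. The fall from cluster 7 to the other nuclei remains for Wwtr1 in 6 of 6 samples, while for Lats2 the lower row has samples at 0 in cluster 7.

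Because Yap1 and Wwtr1, Tead1 and Tead3, and Lats1 and Lats2 are pairs of related genes, the make-up of each pair was followed too. Wwtr1 gave 18.5% of the Yap1 and Wwtr1 UMIs in cluster 7 and 1.84% in the other nuclei. By sample its share ran from 14.3% to 37.5% in cluster 7 and from 1.02% to 2.97% outside it, without overlap. The 37.5% is SCM 1, from 6 Wwtr1 and 10 Yap1 UMIs. Lats2 gave 6.04% of the Lats1 and Lats2 UMIs in cluster 7 (2.80% to 8.68% by sample) and 1.21% outside it (0.797% to 2.43%), and SCM 2 gave 35 of its 54 UMIs in cluster 7. Without the 6% of nuclei with the most UMIs the Lats2 share was 1.51% in cluster 7, from 5 UMIs, and 1.14% outside it, too close to tell apart at this depth. The Wwtr1 share was then 10.9% in cluster 7 and 1.87% outside it, higher in 6 of 6 samples. Tead3 gave 9.01% of the Tead1 and Tead3 UMIs in cluster 7 and 11.6% outside it, and the samples overlapped widely. These are shares of counts, which also depend on how well each transcript is captured.

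The shares were also compared between the media, over all nuclei. The Wwtr1 share was 1.76%, 1.69% and 3.65% in QCM 1, 2 and 3 and 1.99%, 5.94% and 3.57% in SCM. The mean difference of 1.47 percentage points had an exact two-sided permutation p of 0.3 (adjusted over 3 pairs, 0.3). It was 0.42 points without SCM 2, 2.39 points without SCM 1 and -0.065 points after thinning. For the Tead3 share, which was 1.36 points lower in SCM, p was 0.3 by the same exact test (adjusted 0.3). The Tead3 difference was -0.51 points without SCM 1, -2.22 without SCM 3 and -0.21 for replicates 2 and 3 alone. The Lats2 share was 1.60%, 0.888% and 1.34% in QCM and 2.57%, 2.31% and 1.43% in SCM, 0.83 points higher. Its exact permutation p was 0.2 (adjusted 0.3), and after thinning the difference was -0.28 points. With 3 samples against 3 this test cannot give less than 0.1.

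**Figure D3:**
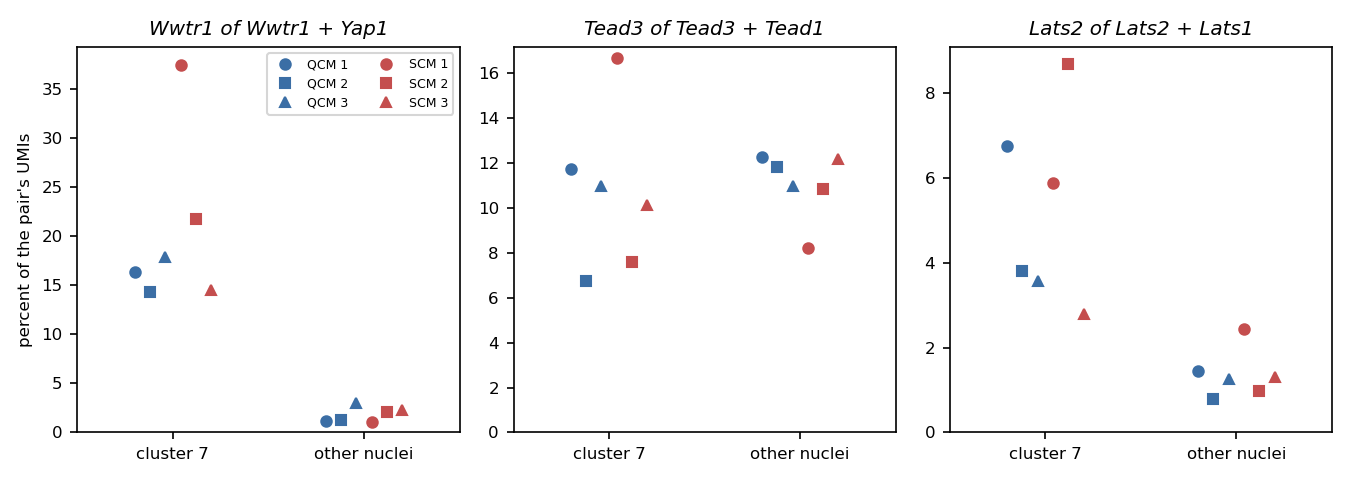
Share of the first gene in the UMIs of each related pair, in percent, for cluster 7 and for all other nuclei, with 1 point per sample (blue QCM, red SCM, symbols the replicate). The Wwtr1 share is 14.3% or more in cluster 7 and 2.97% or less elsewhere, whereas the Tead3 share overlaps between them.

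SCM was then compared with QCM over the summed nuclei of each sample. No member passed the test, and no gene did: edgeR's quasi-likelihood test called 0 of 19046 genes (0%) at a Benjamini-Hochberg adjusted p under 0.05, with 866 (4.55%) at an unadjusted p under 0.05. DESeq2 called 21 genes, none of them a member. All 10 members had a higher estimate in SCM, where 48.6% of all tested genes did, and their median log2 ratio was 0.24 against -0.01 over all tested genes. None of the 10 reached an unadjusted p under 0.05. Members share the same 6 samples, so their 10 directions are not 10 independent results. The members were also chosen with earlier results of these data known.

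Of the co-activators, Yap1 was at 84.4, 139 and 119 CPM in QCM 1, 2 and 3 and at 145, 151 and 132 CPM in SCM. QCM 1 was the lowest sample, and the media overlapped. On the log2 scale the fitted ratio of SCM over QCM was 0.18 ± 0.17 (SE; edgeR adjusted p = 0.929), and 0.10 without QCM 1. Wwtr1 was at 1.51, 2.39 and 4.52 CPM in QCM and at 2.95, 9.52 and 4.89 CPM in SCM, with SCM 2 far above the rest. Its log2 ratio was 0.95 ± 0.52 and the edgeR adjusted p 0.927.

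The Wwtr1 estimate rested much on SCM 2 and on cluster 7. It was 0.42 without SCM 2, 1.44 without QCM 3, 0.32 without the 6% of nuclei with the most UMIs and 0.45 after thinning. Cluster 7 made up 3.52%, 2.84% and 3.82% of the UMIs in QCM 1, 2 and 3, and 3.77%, 16.4% and 7.93% in SCM. With cluster 7 left out the log2 ratio of Wwtr1 was 0.26, and within cluster 7 it was 0.52 ± 0.33 with an edgeR adjusted p of 0.570.

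Of the TEAD factors, Tead1 was at 124, 239 and 197 CPM in QCM and at 251, 281 and 232 CPM in SCM, so that only QCM 2 reached into the SCM range (log2 ratio 0.32 ± 0.20, edgeR adjusted p = 0.929). Tead3 was at 17.3, 31.6 and 24.2 CPM in QCM and at 23.6, 32.0 and 31.6 CPM in SCM, with overlap (0.13 ± 0.22, edgeR adjusted p = 0.944). Single libraries moved both estimates. That of Tead1 was 0.18 without QCM 1, and that of Tead3 ran from 0.028 without SCM 3, 0.036 without QCM 1 and 0.069 without SCM 2 to 0.27 without SCM 1 and 0.28 without QCM 2.

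In the kinase module, Stk3 was at 122, 252 and 176 CPM in QCM and 253, 274 and 214 CPM in SCM (log2 ratio 0.30 ± 0.22, edgeR adjusted p = 0.929). Its partner Sav1 was at 22.5, 33.1 and 26.8 CPM in QCM and 34.6, 31.7 and 32.0 CPM in SCM (0.11 ± 0.16, edgeR adjusted p = 0.936). Lats1 was at 68.7, 106 and 88.8 CPM in QCM and 102, 110 and 111 CPM in SCM (0.15 ± 0.16, edgeR adjusted p = 0.929). In all of them QCM 1 was the lowest sample and QCM 2 lay within the range of SCM. Here too 1 library could move an estimate, that of Stk3 to 0.17 without QCM 1 and 0.51 without QCM 2, that of Sav1 to 0.058 without QCM 3 and 0.18 without QCM 2, and that of Lats1 to 0.091 without SCM 3 and 0.23 without QCM 2.

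Lats2 was the 1 member whose media did not overlap, at 1.12, 0.947 and 1.20 CPM in QCM and 2.70, 2.60 and 1.60 CPM in SCM, where 7.08% of all tested genes did not overlap in either direction. The fitted log2 ratio was 0.87 ± 0.40, with an unadjusted edgeR p of 0.0642 and an adjusted p of 0.927. The SCM 1 value rests on 11 UMIs. Without the 6% of nuclei with the most UMIs the log2 ratio was 0.36, without cluster 7 it was 0.51, and for replicates 2 and 3 alone it was 0.91.

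Of the upstream members, Nf2 was at 56.2, 109 and 85.9 CPM in QCM and 95.3, 104 and 93.9 CPM in SCM (log2 ratio 0.10 ± 0.19, edgeR adjusted p = 0.951), and its estimate was -0.03 without QCM 1, 0.056 without SCM 2 and 0.25 without QCM 2. Amotl2 was at 1.88, 2.51 and 2.41 CPM in QCM and 2.95, 5.44 and 2.50 CPM in SCM. The highest QCM sample and the lowest SCM sample were almost level. Its log2 ratio of 0.54 ± 0.38 (edgeR adjusted p = 0.929) was 0.11 without SCM 2, 0.14 without cluster 7 and -0.03 without the 6% of nuclei with the most UMIs.

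For replicates 2 and 3 alone 9 of the 10 estimates were above 0. The log2 ratios were then 0.09 for Yap1, 0.99 for Wwtr1, 0.19 for Tead1, 0.15 for Stk3 and -0.01 for Nf2. The share of ribosomal protein UMIs was highest in QCM 1, the sample in which 9 of the 10 members (all but Lats2) were lowest. With that share as a covariate in the fit, 7 of the 10 estimates stayed above 0. Those of Yap1 (0.01 ± 0.15, SE), Tead1 (0.05 ± 0.16) and Stk3 (-0.04 ± 0.14) came close to 0. Those of Wwtr1 (0.66 ± 0.79) and Lats2 (1.01 ± 0.61) were larger, but with wide SEs. No member reached an unadjusted p under 0.05 in this fit, where 134 of all 19046 tested genes did. Markers of the intestinal cell types varied between samples as well. By their summed CPM per sample, the 7 goblet markers were at 815 to 1998 in QCM and 504 to 819 in SCM, the 8 enteroendocrine markers at 125 to 194 and 39.3 to 126, and the 7 Paneth markers at 536 to 2676 and 342 to 585. The 7 enterocyte markers were at 767 to 4000 in QCM and 285 to 1335 in SCM, the 6 stem markers at 1077 to 2355 and 1488 to 2578, and the 6 tuft markers at 48.0 to 62.8 and 42.1 to 70.0. All these markers were detected, and the ranges of the media overlapped for each of these lists, for goblet and enteroendocrine markers barely. The 8 markers of fetal or regenerating epithelium, some of them raised in cluster 7, were the exception. Their summed CPM did not overlap, at 44.8 to 91.4 in QCM and 150 to 566 in SCM. Weighting clusters 0 to 8 equally, in a limma fit of log2(CPM + 1) without TMM factors, left all 10 members above 0. The median over all genes was then 0.08, so a value just above 0 says little. The log2 ratios were 0.43 for Wwtr1, 0.38 for Lats2, 0.12 for Amotl2, 0.25 for Yap1, 0.46 for Tead1 and 0.46 for Stk3. The added 1 shrinks ratios of scarce genes. Apart from this fit, leaving out cluster 7 and the fits within clusters given below, the part of these marker lists in the ratios of the members was not tested. Scaling by library size alone in place of TMM factors moved the median of all genes from -0.01 to 0.14 and left all 10 members above 0.

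**Figure D4:**
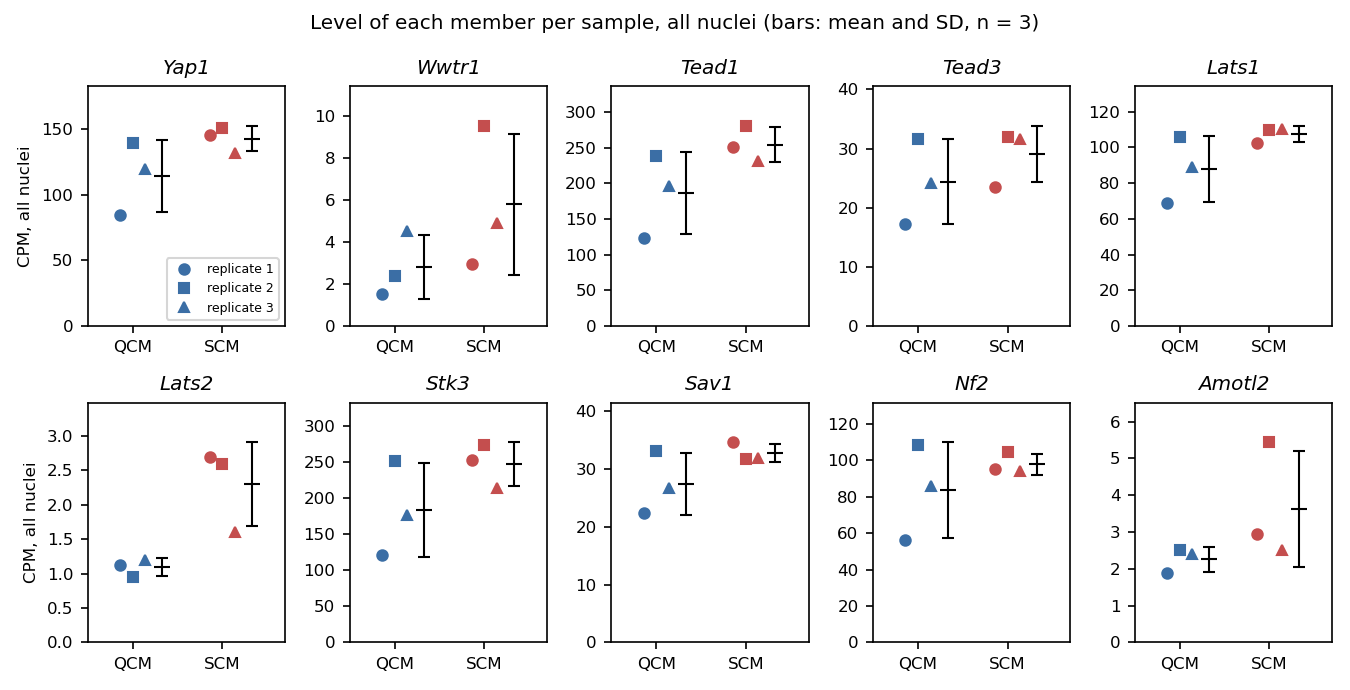
CPM of each member over all nuclei of a sample, with 1 point per sample (blue QCM, red SCM, symbols the replicate) and black bars for the mean ± SD of 3 samples. QCM 1 (blue circle) is the lowest point for 9 members, and only for Lats2 do all SCM points lie above all QCM points.

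Within clusters, edgeR fits were made for 13 clusters, with each sample's counts summed per cluster. Of 130109 tests over all genes 0% passed an adjusted p under 0.05, and of the 89 tests of members none did. DESeq2 called 39 of the tests over all genes and no member. At an unadjusted p under 0.05 there were 2 member tests of 89, where 5.76% of all tests reached it. Estimates were above 0 in SCM in 81 of the 89, against 49.3% of all tests, but all clusters come from the same 6 samples.

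Tead1, Lats1 and Stk3 were tested in 13 clusters each and had a higher estimate in SCM in all 13. Their log2 ratios ran from 0.11 to 0.59 for Tead1, from 0.11 to 0.47 for Lats1 and from 0.16 to 0.72 for Stk3. Yap1 was higher in 12 of 13, Nf2 in 11 of 13, Tead3 in 9 of 10 and Sav1 in 6 of 10. Only Tead3 (0.77 ± 0.33) and Stk3 (0.60 ± 0.24) in cluster 4 had an unadjusted p under 0.05, and the edgeR adjusted p was 0.494 for both. Without QCM 1, 67 of 89 estimates were above 0.

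The scarce members could be tested in few clusters. Wwtr1 was tested in clusters 1, 2 and 7 and Amotl2 in cluster 7 alone, where its log2 ratio was 1.12 ± 0.61 with an edgeR adjusted p of 0.501. Lats2 had too few UMIs in every cluster. In cluster 7 all 9 members tested had an estimate above 0, the smallest being that of Yap1 (0.045 ± 0.28).

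**Figure D5:**
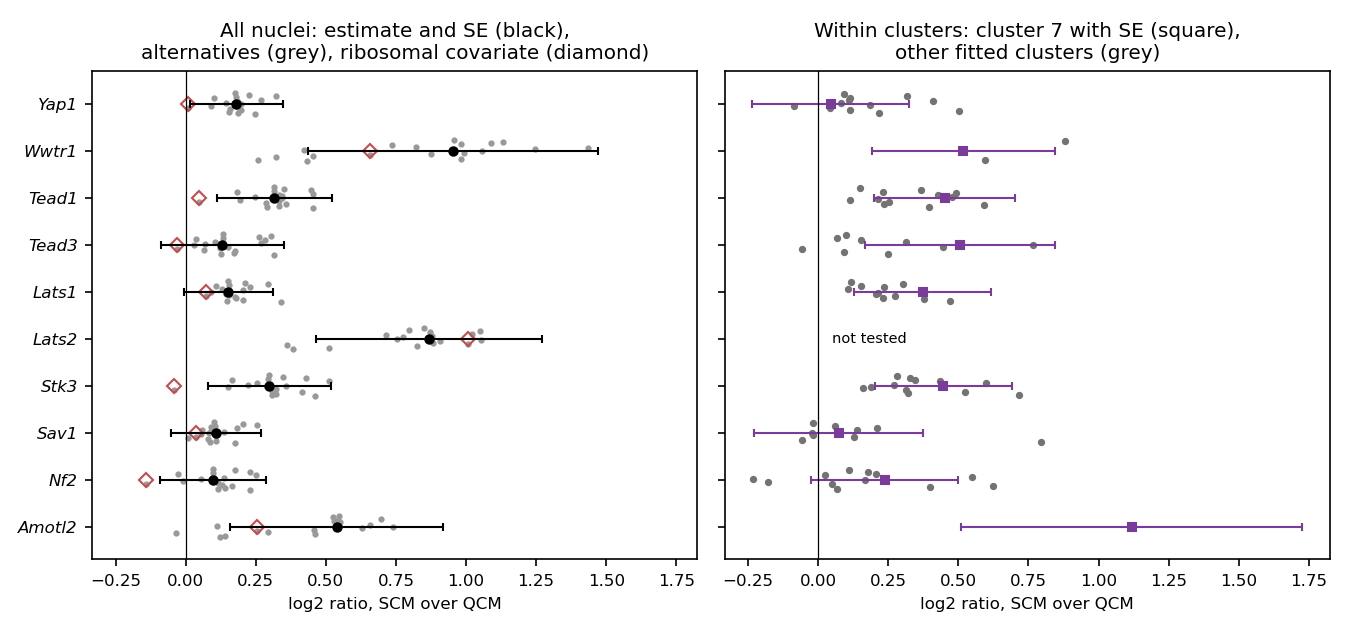
Fitted log2 ratio of SCM over QCM for each member. Left, all nuclei: black points with SE are the estimates, grey points the alternatives, and open diamonds the fit with the ribosomal protein share as covariate, which lies near 0 for Yap1 and Tead1. Right, within clusters: squares with SE are cluster 7 and grey points the other fitted clusters, with most points above 0.

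Whether the media differed in how far a member stood above the other nuclei in cluster 7 was tested on log2(CPM + 1) per sample, cluster 7 less other nuclei. For Wwtr1 this difference was 2.98 ± 0.37 (SD) in QCM and 3.33 ± 0.65 in SCM (n = 3 each), a change of 0.35 (exact two-sided permutation p = 0.4, adjusted over 10 members 0.8). This change was 0.027 without SCM 1, 0.14 without QCM 3 and 0.68 without SCM 3. For Lats2 it was 1.22 ± 0.41 in QCM and 1.44 ± 0.87 in SCM (exact permutation p = 0.8, adjusted 0.8), and for Amotl2 0.87 ± 1.12 and 1.62 ± 0.56 (exact permutation p = 0.4, adjusted 0.8). The Amotl2 change of 0.75 was 0.18 without QCM 1 and 1.29 without QCM 2. Over the other 7 members the change ran from -0.37 (Yap1) to 0.51 (Tead3), all with an adjusted exact permutation p of 0.8.

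Other genes of the pathway were taken from a list of 44, of which 41 were tested. None passed edgeR's test, and 31 had a higher estimate in SCM, where 48.6% of all tested genes did. At an unadjusted p under 0.05, 6 were higher (1.46% of all tested genes) and none lower, and the median log2 ratio was 0.20 against -0.01 over all tested genes. This list too was chosen with earlier results of these data known, and its genes share the same 6 samples. In the fit that adjusts for the share of ribosomal protein UMIs, 24 of 41 estimates were above 0 and the median was 0.02. None reached an unadjusted p under 0.05 there, where 134 of all 19046 tested genes did. Without SCM 2, with 42 genes tested, 2 were higher at that p, against 105 of all 20061 tested genes. The median was then 0.11. For replicates 2 and 3 alone, with 42 genes tested, 5 were higher at that p, against 233 of all 19237 tested genes. There the median was 0.10. The media did not overlap in 11 of the 41, against 7.08% of all tested genes. The 4 genes named here had the smallest p, a choice that itself favours media that do not overlap. Ptpn14, a phosphatase that binds Yap1, was at 1.53, 3.09 and 4.67 CPM in QCM and 9.58, 23.1 and 8.81 CPM in SCM. Its log2 ratio was 2.05 ± 0.49 (edgeR adjusted p = 0.927), and DESeq2 gave an adjusted p of 0.0303.

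The TEAD family gene Tead4 was at 1.27, 1.65 and 2.71 CPM in QCM and 5.65, 8.18 and 3.40 CPM in SCM (log2 ratio 1.46 ± 0.43). Amotl1, an angiomotin like Amotl2, was at 0.902, 0.824 and 1.45 CPM in QCM and 2.46, 10.9 and 2.43 CPM in SCM (2.17 ± 0.65). Wwc2, a relative of the Kibra gene Wwc1, was at 4.07, 8.85 and 11.5 CPM in QCM and 16.0, 26.6 and 17.5 CPM in SCM (1.19 ± 0.35). The edgeR adjusted p of these 3 was 0.927. SCM 2 was the highest sample in all 4 genes, and all 4 stood higher in cluster 7 than in the other nuclei, Ptpn14 at 40.2 CPM against 4.84 and Tead4 at 19.8 against 2.35 on average over samples. Their ratios were smaller without the 6% of nuclei with the most UMIs, at 0.95 for Ptpn14, 0.49 for Tead4, 1.21 for Amotl1 and 0.74 for Wwc2. With clusters 0 to 8 weighted equally, limma on log2(CPM + 1) gave 1.13, 0.38, 0.22 and 0.76 in the same order. Its median over all genes was 0.08. The added 1 shrinks ratios of scarce genes, so these values cannot be set directly against those of edgeR. Amotl1 was at 1.06 in edgeR without SCM 2.

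Of 21 known target genes of Yap1, 17 were tested and none passed edgeR's test. DESeq2 called 2 of them, Ptpn14 and Myof, where it called 21 of all 19046 tested genes. Myof, the gene of the membrane protein myoferlin, is named here because of that call. It was at 12.2, 15.7 and 13.7 CPM in QCM and 41.3, 124 and 31.5 CPM in SCM, with SCM 2 far above the rest. Its log2 ratio was 2.08 ± 0.48 (edgeR adjusted p = 0.927), and DESeq2 put the adjusted p at 0.0126. Over the list, estimates were higher in SCM for 16, against 48.6% of all tested genes. At an unadjusted p under 0.05, 6 were higher and 1 lower, where 1.46% of all tested genes were higher and 3.08% lower. The median log2 ratio was 0.87 against -0.01 over all tested genes. The list was chosen with earlier results of these data known, and its genes share the same 6 samples. These counts are therefore not an independent test. This list holds Lats2 and Amotl2 themselves and shares Ptpn14 and Nuak2 with the list above. Without SCM 2 its median was 0.28 over 18 tested genes. Of these, 3 were higher at an unadjusted p under 0.05, against 105 of all 20061 tested genes. For replicates 2 and 3 alone, which keep SCM 2, the median was 0.73 over 18 tested genes. There 7 were higher at that p, against 233 of all 19237 tested genes. Without cluster 7 the median was 0.46 over 16 tested genes. These sets differ from the 17 genes behind the median of 0.87. In the fit adjusting for ribosomal protein UMIs the median was 0.63 and 14 of 17 estimates were above 0. None reached an unadjusted p under 0.05 in that fit, where 134 of all 19046 tested genes did. The summed CPM of the 8 markers of fetal epithelium was also higher in every SCM sample than in any QCM sample, as given above. With clusters weighted equally (limma on log2(CPM + 1)) the median of the targets was 0.38, against 0.08 over all tested genes. In that fit 16 of 17 estimates were above 0. Apart from this fit and leaving out cluster 7, the part of these markers in the ratios was not tested.

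The genes whose levels ran most like those of Yap1, Tead1 and Lats2 over the 14 clusters were found by Pearson's r of log2(CPM + 1) among genes with a mean of at least 20 CPM. For Yap1 these were Spred1 (r = 0.86), Pank2 (0.85) and Ipo11 (0.85), and for Tead1 they included Camsap1 (0.89) and Dock4 (0.88), both highest in cluster 9 like Tead1. For Lats2 they were Pard6b (0.87), Sqstm1 (0.84) and Lpin2 (0.84), all highest in cluster 7. Between members, r was 0.92 for Wwtr1 with Lats2, 0.86 for Stk3 with Lats1 and 0.04 for Yap1 with Wwtr1. These correlations describe 14 points that share libraries and depth.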

How the data were processed

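Nuclei were isolated from frozen organoids and libraries made with a droplet 3′ kit. Per the submitters' notes, the authors used Cell Ranger 2.1.1 on mm10, and per the study's methods they removed nuclei with outlying mitochondrial share, read total or feature number before deposit. Whether intronic reads were counted is not given in the sources used here. The deposited per-sample matrices hold UMI counts, and the deposited table of nuclei gives cluster numbers without names. The 10 members and the gene lists were chosen with earlier results of these data known.

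UMIs of each gene were added up over all nuclei of a sample, and over each cluster with at least 10 nuclei in 2 or more samples of both media. The sums were tested with edgeR 4.0.16 (R 4.3.3, TMM scaling, filterByExpr with a minimum count of 10, quasi-likelihood test, Benjamini-Hochberg adjustment over all genes, or over all genes of a cluster). CPM are per 1000000 UMIs without TMM factors, so ratios of CPM means differ from fitted ratios. DESeq2 1.42.0 and limma 3.58.1 (voom) were alternatives. For clusters weighted equally, limma was fitted to log2(CPM + 1) of the mean CPM over clusters 0 to 8. Shares and cluster 7 differences used exact two-sided permutation tests (scipy 1.17.1). Scripts were tested on simulated data. Doublets were not called. Symbols and coordinates are from GENCODE M21.

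Named genes were all members, the 4 other pathway genes with the smallest p, and the 3 genes most like Yap1, Tead1 and Lats2, of which 1 is not reported here. A cluster was called -like when 3 or more listed markers were at least 2-fold higher than in other nuclei at 5 CPM or more, limits set with the clusters known.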

Additional observations from a re-analysis of the deposited data

How the results depend on the processing

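Of 179 alternative estimates for members over all nuclei, 173 kept their sign and none passed an adjusted p under 0.05 (lowest, edgeR without QCM replicate 2, 0.407). The sign turned with the ribosomal protein covariate for Tead3 (-0.033), Stk3 (-0.042) and Nf2 (-0.14), for Nf2 when both replicate 1 libraries were left out (-0.0098), and for Amotl2 without the 6% of nuclei with the most UMIs (-0.033). Leaving out 1 replicate at a time gave Nf2 between -0.028 (no QCM 1) and 0.25 (no QCM 2). Over all genes DESeq2 called 21, and the other alternatives 0. Ptpn14 (2.05) and Myof (2.07) passed in DESeq2. Lats2 could not be tested after thinning.

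Samples numbered 1 and 2 deviated together across the media (correlations 0.36 and 0.46, the highest of all 9), while those numbered 3 did not (-0.09), so the numbers were not taken as pairs. With the replicate block, edgeR called 0 genes over all nuclei and 269 gene and cluster pairs against 0 without it, no member among either.

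Within clusters no member was called under any alternative, while over all genes the calls rose to 3135 without the low-count filter, 32 without QCM replicate 2 and 5 with library size alone. No alternative gave a pair share or a cluster 7 difference an adjusted exact permutation p under 0.05, which the design cannot reach. Pair shares turned with thinning for Wwtr1 (-0.065 percentage points) and Lats2 (-0.28). Cluster 7 differences turned with thinning for Tead1 (-0.072), Tead3 (-1.0), Stk3 (-0.015) and Nf2 (-2.11), without nuclei of shared barcodes for Lats2 (-0.77) and Amotl2 (-0.12), and with replicates 2 and 3 alone for Yap1 (0.039) and Sav1 (0.0038). Leaving out 1 replicate at a time gave both signs for Yap1 (-0.63 to 0.052), Lats2 (-0.27 to 0.54), Stk3 (-0.042 to 0.23), Sav1 (-0.51 to 0.14) and Nf2 (-0.067 to 0.13).

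With thinning, 1 member was highest in cluster 7 in place of 3, and the means there fell to 8.26 CPM for Wwtr1, 2.31 for Lats2 and 1.97 for Amotl2, from few UMIs. The causes were not tested. The alternatives on shared barcodes, on cluster 7 and, for shares and levels, on replicates 2 and 3, and those on shares in cluster 7, were chosen after seeing the data.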
